A study of Mus musculus with 2 samples.

Results

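The cyclic nucleotide phosphodiesterases described here are the products of 10 genes, Pde1a, Pde1b, Pde1c, Pde2a, Pde4a, Pde4b, Pde4d, Pde7b, Pde8b and Pde10a. They were matched by gene name among the 55536 annotated genes of the tables, and all 10 were present in the gene table and in both transcript tables of both libraries. The RNA came from hippocampus of female B6CASTF1/J mice, a cross of the C57BL/6J and CAST/EiJ strains, aged 36 days. The single group held 2 libraries made from 300 ng of total RNA each, numbered as biological replicates 1 and 2, with no treatment, no mutation and no second condition. The labels give the libraries separate biosamples but the same donor identifier, so the SD between them (n = 2 throughout) measures the spread between these samples, which may be technical. They also call the tissue a layer of the hippocampus without saying which layer.

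Phosphodiesterases break the phosphate ring of cAMP and cGMP and so end the signal that adenylyl and guanylyl cyclases start. Families differ in substrate and in control. PDE1 enzymes are switched on by calcium and calmodulin and cleave both nucleotides, PDE2A cleaves both and is stimulated by cGMP, and PDE10A cleaves both. PDE4, PDE7 and PDE8 enzymes cleave cAMP. In hippocampal neurons cAMP and cGMP act through protein kinases and cyclic nucleotide-gated channels in synaptic plasticity, and PDE4 inhibitors such as rolipram raise cAMP there. PDE10A is best known from striatal projection neurons.

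The enzymes share a catalytic domain with a pair of metal-binding residues in the phosphodiesterase signature of the PROSITE database, 12 codons long. A search of the 66743 annotated coding sequences found it in 87 transcripts of 22 genes. These were all 21 catalytic phosphodiesterase genes of the annotation and 1 readthrough gene, Gm45837, which includes exons of Pde2a. The 36 bases are shown because the transcript shares are divided by whether the annotated coding sequence holds them. Holding them does not show that a whole catalytic domain is encoded, and lacking them can reflect an incomplete annotation. The bases are given 5′ to 3′ on the coding strand (GENCODE M21, mm10), with the paired histidine and aspartate codons in capitals.
Pde1a (chr2:79887855-79887890, minus strand): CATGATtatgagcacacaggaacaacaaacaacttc
Pde1b (chr15:103524849-103524884, plus strand): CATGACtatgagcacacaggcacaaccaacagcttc
Pde1c (chr6:56158941-56158976, minus strand): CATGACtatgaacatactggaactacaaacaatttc
Pde2a (chr7:101508482-101508517, plus strand): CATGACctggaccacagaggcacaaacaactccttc
Pde4a (chr9:21204375-21204410, plus strand): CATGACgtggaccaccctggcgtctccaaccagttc
Pde4b (chr4:102599694-102599729, plus strand): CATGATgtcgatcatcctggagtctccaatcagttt
Pde4d (chr13:109939313-109939348, plus strand): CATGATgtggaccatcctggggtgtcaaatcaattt
Pde7b (chr10:20434504-20434539, minus strand): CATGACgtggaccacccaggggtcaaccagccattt
Pde8b (chr13:95034300-95034335, minus strand): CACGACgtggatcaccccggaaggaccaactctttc
Pde10a (chr17:8967449-8967484, plus strand): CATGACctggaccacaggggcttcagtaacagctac
Every signature-holding transcript of a gene carried the same bases. The 10 stretches shared 12 of 36 bases, and the 45 pairs shared between 17 and 32. Pde1a and Pde1b were the closest pair, with 32 bases in common, and Pde4b and Pde4d shared 30.

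Depth was 32443497 summed expected counts in replicate 1 and 30125183 in replicate 2, spike-ins included. Levels are given as TPM, a share of all transcripts that allows for RNA length and so can be compared between genes. Genes count as detected where neither library was below 1 TPM. Markers of hippocampal cells were present. All 7 excitatory neuron genes were detected (Camk2a at 1241 ± 87 TPM and Nrgn at 627 ± 36 TPM), as were all 6 CA1, 6 CA3 and 7 dentate granule neuron genes. Replicate 2 stood apart for choroid plexus genes, whose sum over 8 genes came to 26.6 TPM in replicate 1, against 1293 TPM in replicate 2. Meningeal fibroblast genes were also higher there, with sums of 54.3 and 106 TPM and a median log2 ratio of 0.68. CA3 genes were lower, with a median of −0.31. In both lists the median was over the 5 of 6 genes averaging at least 100 counts. Replicate 2 also held less RNA of oligodendrocyte genes, 6 of 7 of which were lower by more than the 25% limit used for the ratios, with a median log2 ratio of −0.35 (replicate 2 over replicate 1) and sums of 1518 TPM in replicate 1 and 1156 TPM in replicate 2. All genes of the interneuron (7), astrocyte (6), microglia (6), endothelial (6), mural (6), meningeal (6) and cerebral cortex (7) lists were also detected. Fewer cells of a type and less RNA per cell cannot be told apart in such bulk tissue.

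All 10 phosphodiesterase genes were detected, and their levels spanned from 1.47 ± 0.057 TPM for Pde1c to 114 ± 7.7 TPM for Pde2a. Together they held 386 TPM in replicate 1 and 377 TPM in replicate 2. That was 89.4% ± 0.75 of the summed TPM of the 21 catalytic genes. The median of the 10 was 30.4 TPM, against 2.72 TPM for the 11 other catalytic genes, of which only 7 were detected. The 12679 detected protein-coding genes had a median of 14.7 TPM. A level of 10 TPM or more in both libraries was reached by 8 of the 10, against 60.5% of the detected protein-coding genes and 1 of the 11 other catalytic genes (Pde7a). The 10 genes were chosen with earlier results of these data known. Their share of 89.4% and their contrasts with the 11 other catalytic genes and with other gene sets may therefore partly follow from the choice.

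**Figure D1:**
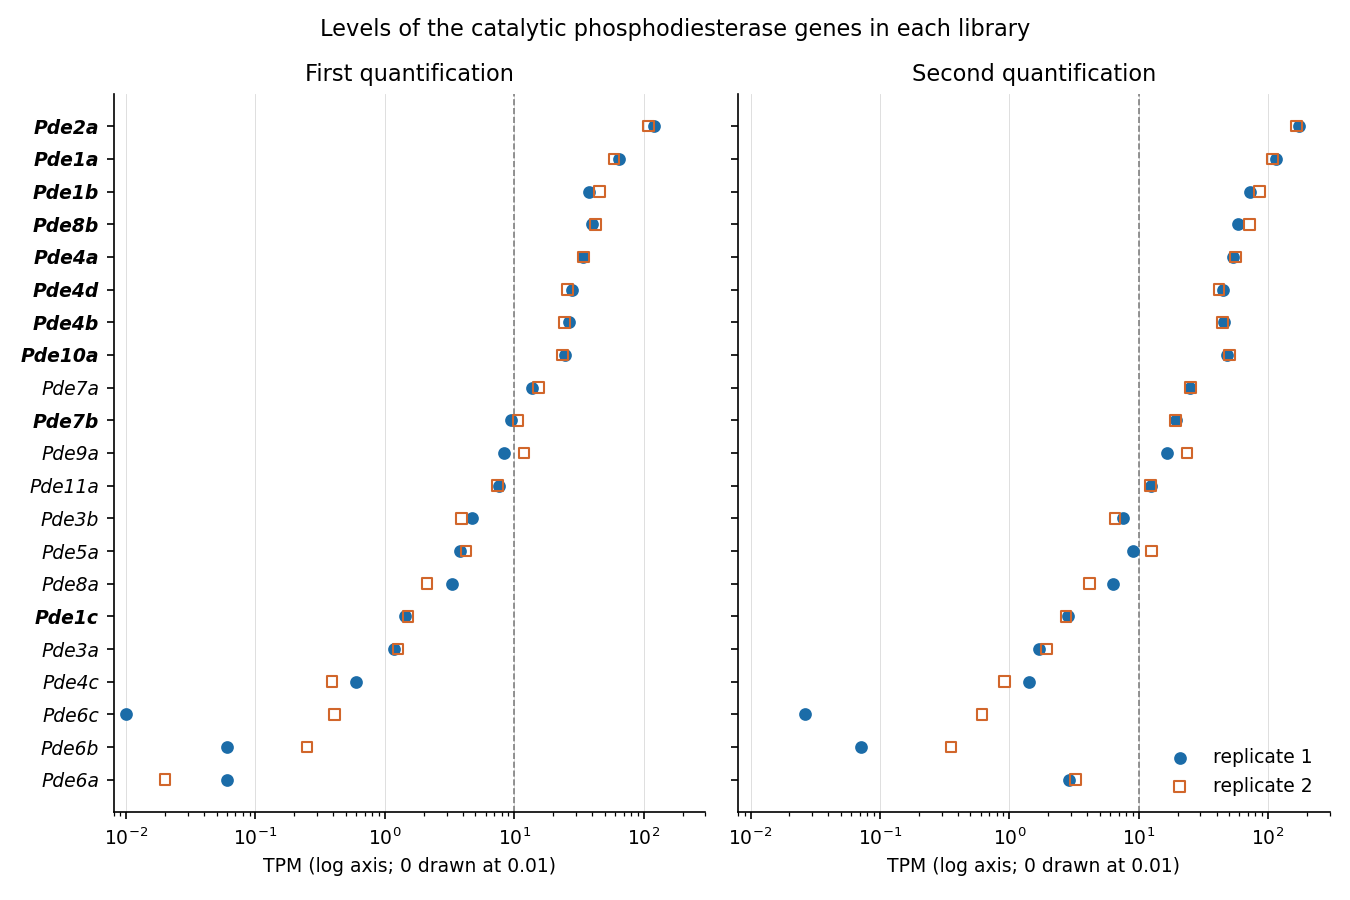
TPM of the 21 catalytic phosphodiesterase genes in replicate 1 (filled circles) and replicate 2 (open squares), in the first (left) and second (right) quantification, on log axes with 10 TPM dashed. The 10 genes described here are in bold. Of the 10, 8 lie above 10 TPM in both libraries at the left, and Pde1c is the lowest, at 1.43 and 1.51 TPM.

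The dual-substrate enzymes among the 10 held most of the RNA. Pde1a, Pde1b, Pde1c, Pde2a and Pde10a summed to 244 ± 6.9 TPM, and the cAMP-specific Pde4a, Pde4b, Pde4d, Pde7b and Pde8b to 138 ± 0.28 TPM. Over the 21 catalytic genes, dual-substrate families held 60.2% ± 1.2 of the TPM, cAMP-specific families 36.4% ± 0.43 and cGMP-specific families 3.41% ± 0.79. By family, PDE2 held 26.8% ± 1.6, PDE1 24.7% ± 0.60, PDE4 20.3% ± 0.40 and PDE8 10.3% ± 0.30. In the second quantification the order of PDE2 and PDE1 was turned round, with 23.4% ± 1.3 for PDE2 and 26.6% ± 0.081 for PDE1.

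Pde2a, the cGMP-stimulated enzyme (chromosome 7, 101421691 to 101512827, plus strand), was the highest of the family. It had 119.9 TPM in replicate 1 and 109 TPM in replicate 2, more than 94.9% of detected protein-coding genes. Its expected counts, 10071.48 and 8736.67, are not whole, so some of its reads were divided with other genes, and the value is uncertain to that extent. Gm45837 shares 3955 exonic bases with it on the same strand and had 116 and 64.76 counts, or 0.961% of the Pde2a count. Which genes took the divided reads was not determined. In the second quantification Gm45837 received more, 11.3 and 17.9 TPM, beside 175 and 166 TPM for Pde2a.

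Among the calmodulin-activated enzymes, Pde1a (chromosome 2, 79834453 to 80129458, minus strand) had 64.4 and 59.1 TPM from 5537 and 4846 counts. Pde1b (chromosome 15, 103503034 to 103530052, plus strand) had 38.1 and 45.7 TPM from 2559 and 2873 counts. Pde1c (chromosome 6, 56069804 to 56569103, minus strand) had 1.43 and 1.51 TPM from 183 and 186 counts. The 3 ranges did not overlap, and Pde1a lay 45.0-fold above Pde1c in replicate 1 and 39.1-fold above it in replicate 2. Pde1a was higher in replicate 1 and Pde1b in replicate 2, and the SD of Pde1b, 12.7% of its mean, was the widest of the 10. The calmodulin genes Calm3, at 919 ± 37 TPM, and Calm2, at 854 ± 84 TPM (both with shared reads), were far above them.

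The cAMP-specific PDE4 genes lay close to each other. Pde4a (chromosome 9, 21165714 to 21213248, plus strand) had 33.7 and 34.4 TPM, with the smallest SD of the 10 relative to its mean, 1.39%. Pde4d (chromosome 13, 108449948 to 109953461, plus strand), which spans 1503.5 kb, had 27.9 and 25.7 TPM. Pde4b (chromosome 4, 102087543 to 102607259, plus strand) had 26.3 and 24.5 TPM. The ranges of Pde4d and Pde4b overlapped, and Pde4a lay above both. The fourth gene of the family, Pde4c, stood at 0.600 and 0.390 TPM (42 and 25 counts), so Pde4a was 56.2-fold and 88.2-fold above it in the 2 libraries.

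Pde8b, whose enzyme binds cAMP with high affinity (chromosome 13, 95024454 to 95250336, minus strand), had 40.0 and 42.4 TPM. Its paralog Pde8a stood far lower, at 3.33 and 2.11 TPM. Pde7b, another cAMP-specific enzyme (chromosome 10, 20398004 to 20725078, minus strand), had 9.51 and 10.7 TPM. Unlike the other paralog pairs named here, Pde7b was the lower of its pair, at 0.693-fold and 0.696-fold the level of Pde7a. Pde10a (chromosome 17, 8525372 to 8986648, plus strand) had 24.6 and 23.5 TPM from 3163 and 2860 counts. Of 9 marker genes of striatal projection neurons 6 were detected and none was at 0, with a sum of 53.0 TPM in replicate 1 and 54.2 TPM in replicate 2. Most of that sum was Ppp1r1b, at 20.3 and 23.8 TPM, and Penk, at 17.5 and 14.9 TPM. The dopamine receptor genes were lower, with Drd1 at 2.09 and 2.52 TPM and Drd2 at 1.39 and 1.04 TPM. The part of such cells in the Pde10a and Pde1b levels was not tested.

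In order, Pde2a came first, then Pde1a, Pde1b, Pde8b, Pde4a, Pde4d, Pde4b, Pde10a, Pde7b and Pde1c. Neighbours were called apart where they kept this order with ranges of the 2 libraries that overlapped in neither quantification. The steps from Pde2a to Pde1a, Pde1a to Pde1b, Pde8b to Pde4a, Pde10a to Pde7b and Pde7b to Pde1c met this, as did the step from Pde4a to Pde4d. Pde1b and Pde8b overlapped in the first quantification. Pde4d overlapped Pde4b, and Pde4b overlapped Pde10a, in the first quantification. In the second their ranges did not overlap and the order was turned round, with Pde10a highest, then Pde4b and Pde4d.

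The second quantification, a separate estimate the authors made from the reads, gave higher TPM for every one of the 10. The ratio of its mean TPM to that of the first ran from 1.49 for Pde2a to 2.05 for Pde10a, with a median of 1.80. Over 12645 detected protein-coding genes the median ratio was 1.71, with quartiles of 1.58 and 1.94, so Pde2a lay below and Pde10a above the quartiles. Pde7b passed 10 TPM there, with 19.4 and 19.3 TPM.

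The difference between the libraries was small for each of the 10. A log2 ratio of replicate 2 over replicate 1 was taken on counts scaled by TMM, a scaling that assumes most genes do not differ. It was compared over the 12651 genes that averaged at least 100 counts. None of the 10 was over 2-fold apart, where 0.466% of those genes were (0.372% higher and 0.0949% lower in replicate 2). None reached the narrower limit either, with 1 library 25% above the other (0.32 on the log2 scale). That limit was passed by 6.24% of those genes, 4.43% higher and 1.80% lower in replicate 2. The median absolute log2 ratio was 0.10 for the 10 and 0.09 for all. The biological coefficient of variation, edgeR's estimate of the relative spread between the 2 samples over 18246 genes, was 0.0900.

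Pde1b had the widest log2 ratio, 0.24 with a 95% exact counting interval of 0.16 to 0.32, and 88.6% of genes had a smaller one. In the same direction, the median log2 ratio was 0.14 for each of the dentate granule neuron and striatal projection neuron lists. List medians were taken over genes averaging at least 100 counts, which were 4 of the 9 striatal genes. Those 4 were not alike, with Ppp1r1b at 0.26, Rgs9 at 0.24, Drd1 at 0.03 and Penk at −0.26. The median was 0.18 for the mural, 0.68 for the meningeal and 4.28 for the choroid plexus list. The other marker lists had medians from −0.35 (oligodendrocyte) to 0.02 (endothelial). The part of any of these cells in the Pde1b ratio was not tested. Pde4b stood at −0.16 (−0.25 to −0.07), Pde2a at −0.13 (−0.17 to −0.09) and Pde1a at −0.12 (−0.17 to −0.06). These intervals cover counting error only, not the difference between samples. The counting intervals of Pde4a at 0.00, Pde7b at 0.01, Pde8b at 0.01 and Pde1c at 0.10 included 0. Those of Pde4d at −0.10 (−0.19 to 0.00) and Pde10a at −0.07 (−0.14 to 0.00) ended at 0.00 as rounded. Scaled to the spike-in RNAs, the ratio of every gene moved up by 0.27, and the median of all genes stood at 0.25 in place of −0.02. All 10 were then positive, from 0.11 for Pde4b to 0.51 for Pde1b, whereas 5 were above and 5 below 0 under TMM. That uniform shift alone turned the sign of Pde1a, Pde2a, Pde4b, Pde4d and Pde10a.

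**Figure D2:**
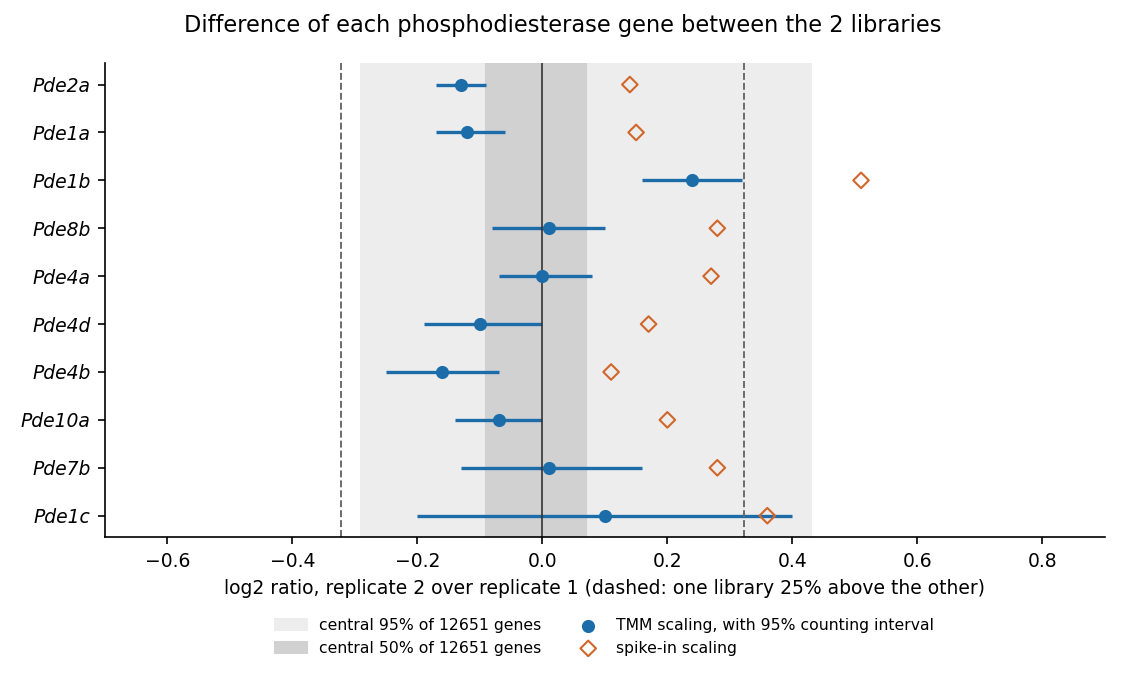
Log2 ratio of replicate 2 over replicate 1 for the 10 genes, with TMM scaling (filled circles with 95% counting intervals) and with spike-in scaling (open diamonds). Grey bands hold the central 50% and 95% of 12651 genes. All circles lie within the 25% limit (dashed), and Pde1b, at 0.24, is the farthest from 0.

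Among the 11 other catalytic genes, the 7 that averaged at least 100 counts included 1 beyond the 25% limit (6.24% of all such genes), Pde8a, with 274 and 175 counts and a log2 ratio of −0.57 (counting interval −0.85 to −0.29). The oligodendrocyte genes were lower in the same library by a median of −0.35, and their part in the Pde8a ratio was not tested. Pde7a had 13.7 and 15.4 TPM, the cGMP-specific Pde9a 8.29 and 11.9 TPM and Pde11a 7.57 and 7.39 TPM. Pde3b had 4.70 and 3.90 TPM, the cGMP-specific Pde5a 3.83 and 4.25 TPM and Pde3a 1.17 and 1.26 TPM. The 3 photoreceptor genes Pde6a, Pde6b and Pde6c lay below 1 TPM in both libraries of the first quantification.

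Transcripts of the 10 genes differed in whether their annotated coding sequence held the signature. Those annotated as targets of nonsense-mediated decay were counted with it where they held it. The signature was carried by 97.9% ± 0.19 of the Pde1a TPM, 97.7% ± 0.51 of Pde4a and 96.0% ± 0.49 of Pde1c. It was carried by between 78.3% and 86.4% of Pde1b, Pde4b, Pde4d, Pde7b and Pde10a. Pde2a, with 53.5% ± 3.2, and Pde8b, with 46.2% ± 3.9, were the lowest. The second quantification gave 85.5% ± 7.1 for Pde2a and 53.6% ± 8.8 for Pde8b. Pde8b had the lowest mean of the 10 in both. In the second its libraries (59.8% and 47.3%) overlapped those of Pde10a (64.8% and 58.5%), so these 2 genes were not apart. Annotated fragments without the signature, such as Pde8b-211, count against these shares. The second quantification gave lower shares than the first for Pde10a (61.6% ± 4.4), Pde1b (71.3% ± 0.40), Pde7b (74.3% ± 2.1), Pde4b (78.0% ± 1.6) and Pde1c (68.2% and 93.2% in the 2 libraries). The transcript with the highest TPM was the same in both quantifications for 9 of the 10 (all except Pde8b), against 75.7% of 7453 genes with several annotated transcripts and a mean of 10 TPM or more, a level that Pde1c does not reach.

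**Figure D3:**
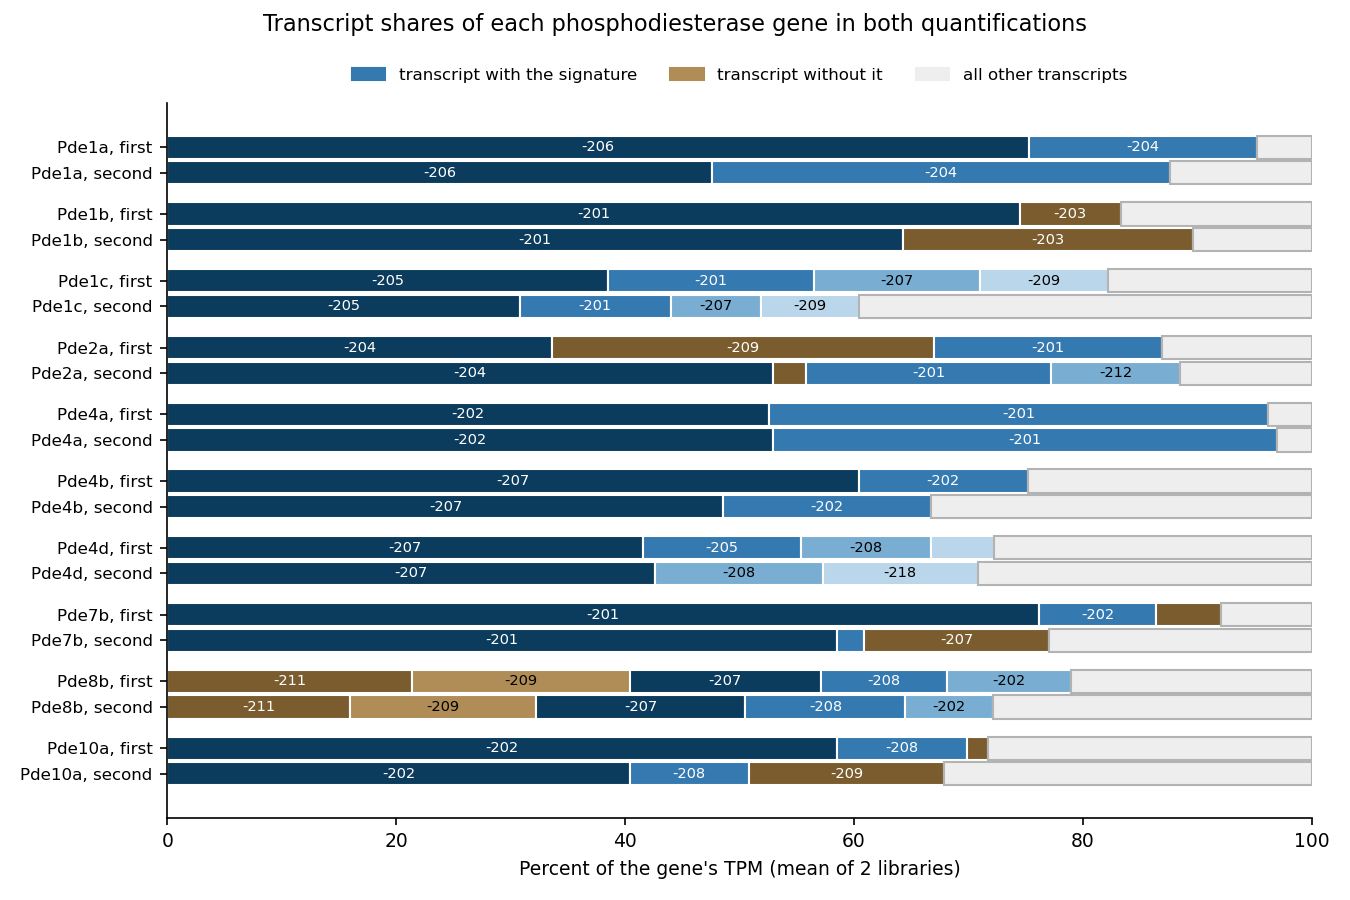
Percent of each gene's TPM held by its transcripts, as the mean of the 2 libraries, in the first (upper bar) and second (lower bar) quantification. Blue segments are transcripts with the catalytic signature, brown ones lack it, and pale grey is the sum of transcripts under 10% in both. The Pde4a bars are alike in both, while Pde2a-209 holds 33.4% in the first and 2.90% in the second.

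Pde2a RNA was divided between transcripts with different first exons. Pde2a-201 begins at the first annotated start of the gene, and Pde2a-204 begins 28.8 kb downstream. The 300 bases around each start (250 before, 50 after) are shown because transcripts from both starts were assigned reads. They come from RefSeq on GRCm38.p6, 5′ to 3′. Capitals mark the short form of the cAMP response element, TGACG or its reverse complement CGTCA, searched on both strands.
Pde2a-201 start (chr7:101421441-101421740, plus strand): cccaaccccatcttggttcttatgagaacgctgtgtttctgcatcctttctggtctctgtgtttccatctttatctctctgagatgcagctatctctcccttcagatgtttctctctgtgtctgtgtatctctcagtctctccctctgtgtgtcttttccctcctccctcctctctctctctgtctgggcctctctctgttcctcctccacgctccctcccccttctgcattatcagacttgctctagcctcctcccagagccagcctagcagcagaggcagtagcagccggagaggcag
Pde2a-204 start (chr7:101450270-101450569, plus strand): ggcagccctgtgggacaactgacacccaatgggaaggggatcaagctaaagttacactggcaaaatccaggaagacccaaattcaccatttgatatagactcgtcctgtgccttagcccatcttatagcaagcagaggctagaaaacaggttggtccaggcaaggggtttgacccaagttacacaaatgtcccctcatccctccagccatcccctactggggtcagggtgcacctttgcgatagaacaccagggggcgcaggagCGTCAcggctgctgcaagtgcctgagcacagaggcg
The short element was found in the window of Pde2a-204 and not in that of Pde2a-201. It was present in 5 of the 31 RefSeq promoter windows of the 10 genes (16.1%), at 1 start each of Pde1a, Pde2a, Pde4a, Pde4b and Pde8b, and in 20.8% of 32851 mouse promoter windows of the same length. The full palindrome TGACGTCA, which contains the short element on each strand, was in 0 of the 31 windows and in 1.79% of all. These are letter matches only.

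The protein-coding Pde2a-204 held 38.4% of the Pde2a TPM in replicate 1 and 28.8% in replicate 2, and 60.5% and 45.3% in the second quantification. Pde2a-201 held 17.4% and 22.4%, and 21.4% and 21.3% in the second. All transcripts that begin over 25 kb from the first start held 46.7% ± 6.7 of the first estimate and 64.5% ± 5.8 of the second. These transcripts begin at several points, from 28.8 to 79.9 kb into the locus, so their sum does not measure the Pde2a-204 start alone. The sum was lower in replicate 2 than in replicate 1 in both quantifications. Pde2a-209, annotated as a target of nonsense-mediated decay and without the signature, held 33.4% ± 3.2 of the first estimate but 2.90% ± 2.2 of the second. Its length of 4105 bases is close to that of Pde2a-204 and Pde2a-201. Pde2a-212 was listed at 0% at first, against 11.3% ± 3.7 in the second quantification.

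PDE4 genes make long forms, with upstream conserved regions that bind regulators, and short forms that lack part of them. Coding forms were divided by how far into the coding sequence the signature lies, after codon 350 for long forms and before it for short ones. Pde4a was divided almost evenly, with 54.2% ± 2.0 in long forms and 43.6% ± 1.5 in short ones. Pde4b was mostly long, with 63.3% ± 3.1 against 20.2% ± 0.21. Pde4d had 38.2% ± 4.7 in long forms and 46.5% ± 3.6 in short ones, with a long share of 41.6% in replicate 1 and 34.9% in replicate 2. The second quantification gave the same order within each gene, with long shares of 53.9% ± 1.5 for Pde4a and 54.3% ± 2.4 for Pde4b, and a short share of 48.2% ± 3.7 for Pde4d.

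The long Pde4a form was almost all Pde4a-202, with 52.6% ± 2.7, whose signature begins at codon 459. The short one was Pde4a-201, with 43.6% ± 1.5, which begins 31.0 kb downstream and has its signature at codon 225. The 2 quantifications differed by less than 1 percentage point for both. Pde4b-207, the main long form of Pde4b (signature at codon 431), held 60.4% ± 2.1, and Pde4b-202, which begins 502.2 kb into the locus, 14.8% ± 0.32. Pde4d-207, a short form that begins 1453.2 kb into the locus, was the leading transcript of Pde4d with 41.6% ± 2.9. The long forms of Pde4d were spread over several starts. Pde4d-208 held 13.9% and 8.67% in the 2 libraries, and Pde4d-205 held 13.8% ± 0.085, against 0% in the second quantification. Pde4d-218 held 5.55% ± 0.44, against 7.62% and 19.3% in the second.

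Pde1a-206 held 75.3% ± 0.23 of the Pde1a TPM, and Pde1a-204 19.9% ± 1.4. They share the same 1635 coding bases and differ in their ends, with 2518 bases after the coding sequence in Pde1a-206 and 416 in Pde1a-204. The second quantification gave 47.6% ± 6.0 and 40.0% ± 0.55, closer to even. Pde1b-201 held 74.5% ± 0.21 (64.3% ± 1.2 in the second), and the annotated fragment Pde1b-203, which ends before the signature, 8.81% ± 0.52 (25.3% ± 0.39). Shares of Pde1c rest on few reads. Its leading transcript, Pde1c-205, had 42.8% and 34.2%, and Pde1c-201 3.82% and 32.1%, from 4.91 and 41.5 counts. Pde1c-207 held 20.7% and 8.23%, and Pde1c-209 10.1% and 12.2%.

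Pde8b had no dominant transcript. Pde8b-211, an annotated 5-exon fragment, held 21.4% ± 4.1. It begins 216.1 kb downstream, past the signature, and its coding sequence is annotated from its first base. Whether it has a start of its own was not tested. The retained-intron Pde8b-209 held 19.0% ± 2.1, and the longer coding form Pde8b-207 16.7% ± 4.3. Pde8b-208, also with the signature, held 11.2% and 10.8% in the 2 libraries. In the second quantification Pde8b-207 led with 18.3% ± 3.9. Pde8b-202 held 15.8% in replicate 1 and 6.03% in replicate 2. Transcripts without an annotated coding sequence, such as retained-intron ones, made up 19.7% of Pde8b in replicate 1 and 34.4% in replicate 2, against 80.3% and 65.6% for protein-coding ones. The antisense gene Gm48420 overlaps 447 bases of Pde8b exons and had 19 and 15 counts, 0.806% of the Pde8b count. Whether counting used the strand is not given in the sources used here, so reads of the 2 genes may be mixed.

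Pde7b-201 held 76.2% ± 7.5 of Pde7b, and Pde7b-202, which begins 176.6 kb downstream, 10.2% ± 0.16. The retained-intron Pde7b-207 held 0% and 11.3% in the 2 libraries, and 19.6% and 12.8% in the second quantification. For Pde10a, Pde10a-202, which begins 276.3 kb into the locus, held 58.5% ± 1.2, and the upstream Pde10a-208 11.4% ± 1.3. All transcripts that begin over 200 kb from the first start held 74.7% ± 2.8 of Pde10a, and 73.8% ± 1.9 in the second quantification. Pde10a-202 alone had 40.4% ± 5.2 in the second quantification, where the fragment Pde10a-209, which lacks the signature, took 17.1% ± 2.5. The fragment begins 367.9 kb into the locus, so it counts in the same sum. The summed transcripts begin at several points, from 231.6 to 420.2 kb into the locus. Their sum therefore does not measure the Pde10a-202 start alone.

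Other genes of the cyclic nucleotide pathway were read from 6 lists of 64 genes in all, of which 50 were detected. Of the 53 that averaged at least 100 counts, 3 passed the 25% limit in the direction of replicate 2 (Adcy7, Npr1 and Prkg2) and 0 passed it the other way, near the shares of all such genes (4.43% and 1.80%). None was over 2-fold apart. The adenylyl cyclases, which make cAMP, were detected in 8 of 10 cases and had a median of 19.2 ± 0.71 TPM. They were led by the calcium-stimulated Adcy1 at 139 ± 1.4 and Adcy2 at 43.2 ± 0.89 TPM. Of the guanylyl cyclases and nitric oxide synthases, the sources of cGMP and of the gas that activates its soluble cyclase, 7 of 12 were detected, at a median of 2.42 ± 0.29 TPM. Gucy1b1, the shared subunit of the soluble cyclase, led with 45.0 ± 0.39 TPM, and its partner Gucy1a2 had 25.9 ± 0.26 TPM.

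Protein kinase A, the main cAMP effector, was detected in full, with 9 of 9 subunits and inhibitors at a median of 77.8 ± 3.1 TPM. The regulatory subunit genes Prkar1a, at 231 ± 6.8, and Prkar1b, at 161 ± 7.5 TPM (with shared reads), led. The A-kinase anchoring proteins, which tether the kinase and, for some of them, phosphodiesterases, were detected in 10 of 10 cases at 24.2 ± 1.5 TPM, led by Akap11 at 75.9 ± 4.0 (with shared reads) and Akap6 at 51.3 ± 2.3 TPM. Of 13 other effectors 6 were detected, among them Rapgef4, a cAMP-activated exchange factor for Rap, at 136 ± 0.88 TPM and the channel gene Hcn2 at 44.9 ± 3.4 TPM. The 10 binding partners were all detected, at a median of 52.3 ± 0.57 TPM.

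**Figure D4:**
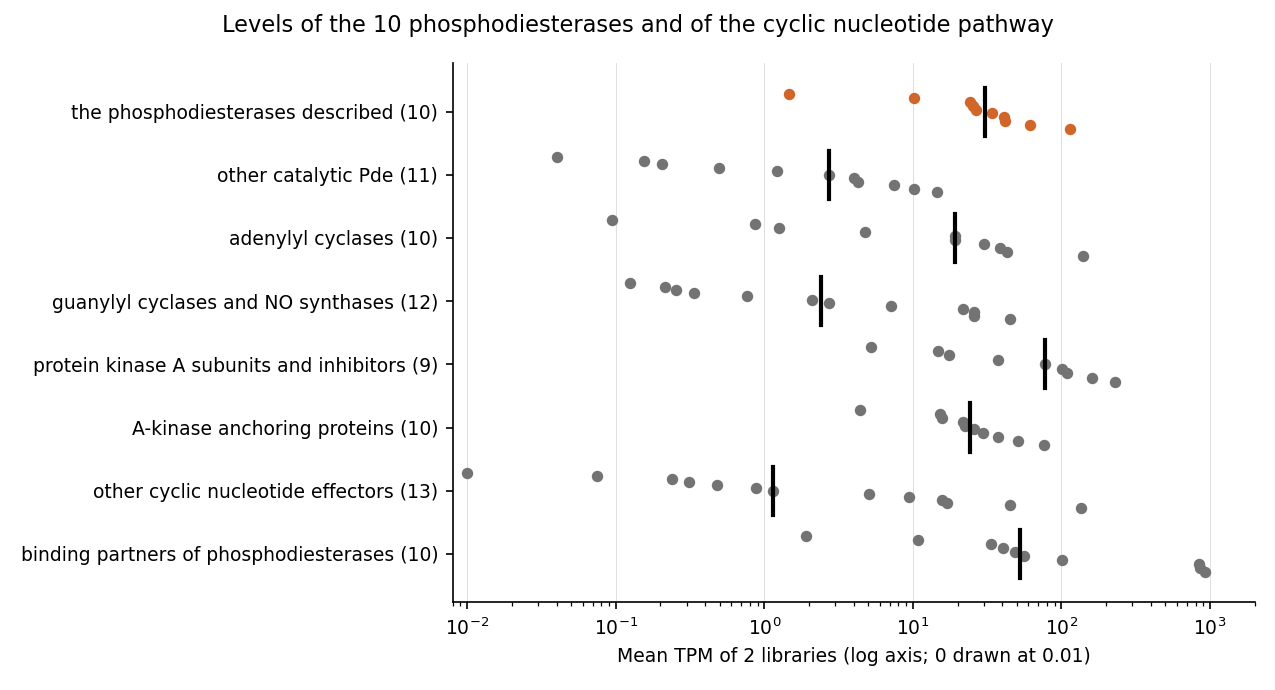
Mean TPM of each gene (points) in the 10 phosphodiesterases, the 11 other catalytic genes and 6 pathway lists, on a log axis, with the list median as a bar and the number of genes in brackets. The 10 phosphodiesterases (orange) have a median of 30.4 TPM. That is above the median of the adenylyl cyclases (19.2) and below that of the protein kinase A list (77.8). The 10 were chosen with earlier results of these data known, so their place among the lists may partly follow from the choice. Over all 21 catalytic genes the middle gene, Pde9a, has 10.1 TPM, below the adenylyl cyclase median.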

How the data were processed

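Total RNA-seq of 2 hippocampus libraries was read from 3 tables per library, all on mm10 with GENCODE M21, per the file headers and the deposited readme. The first quantification, a gene and a transcript table, holds deposited expected counts (reads that fit several transcripts are split between them), deposited TPM and the percent of the gene's TPM that the authors give each transcript. A separate transcript table, the second quantification, holds the authors' estimated counts with TPM and was summed per gene here. For neither are the software and the strand setting given in the sources used here. Entries with no gene name held 1.23e-05% and 1.62e-05% of the counts and were left out.

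Levels are deposited TPM, as mean ± SD of 2 libraries. For log2 ratios, expected counts rounded to integers were scaled by TMM (edgeR 4.0.16, R 4.3.3), with a prior count of 0.5, and compared over genes averaging at least 100 counts. The dispersion used genes averaging at least 10 counts. A gene whose expected count was over 0.005 from a whole number was treated as sharing reads. With 1 library on each side, differences are described by size with no p-value, and the ratio step was tested on simulated data. Counting intervals are 95% exact (Clopper-Pearson, scipy 1.17.1). Coding sequences were translated with Biopython 1.88 for the signature search, which was chosen after the files were read, in place of a planned comparison of proteins. Alternatives were DESeq2 1.42.0 size factors, total-count and spike-in scaling, deposited TPM, posterior mean TPM, TPM over protein-coding genes, other minimums, the second quantification and each replicate alone.

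The genes and lists were chosen with earlier results of these data known. The text names the 10 genes, their transcripts with 10% or more of the gene's TPM in either quantification, the 11 other catalytic genes, and in each pathway list the 2 genes with the highest TPM. Marker lists are given by counts, medians or sums. The single marker genes named, the 3 pathway genes past the limit, the small subunit genes, the pineal genes and the divisions of forms by codon or start were chosen after their values were seen.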

Additional observations from a re-analysis of the deposited data

How the results depend on the processing

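Levels depended on what TPM was scaled over. The median of the 10 genes was 30.4 TPM, 52.1 TPM in the second quantification, 70.4 TPM when TPM was rescaled over protein-coding genes only and 26.8 TPM without Pde2a, the gene with shared reads (an alternative chosen after seeing the data). Either library alone gave 30.0 to 30.8 TPM, 8 to 9 genes at 10 TPM or more, 8 to 9 genes with the same leading transcript and 50 to 51 detected pathway genes. The count of the 10 genes past the 25% limit was 0 under TMM and 2 under spike-in scaling (Pde1b and Pde1c). Over all genes that count was 789 under TMM (561 higher and 228 lower in replicate 2), 667 higher and 154 lower under total-count scaling, and 3703 higher and 31 lower under spike-in scaling. Over genes averaging at least 10 counts it was 3572 and with no filter 11147, and the count over 2-fold was 59, against 522 and 5797 with those filters. The spread was 0.0900, 0.0798 over genes averaging at least 100 counts, 0.0905 with no filter and 0.0907 with DESeq2's scaling. The cause of these shifts was not tested. The share of the leading transcript moved by more than its SD between the quantifications for 8 of 10 genes, all except Pde4a and Pde4d. Estimates of single transcripts of Pde1c rest on under 200 counts per library. No paired analysis was possible because the study holds 1 group.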

Other observations

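Among the phosphodiesterase genes outside the 10, those of photoreceptors were at low counts. Pde6c, Pde6g and Pde6b were higher in replicate 2, whereas the counting intervals of Pde6a and Pde6h included 0. Pde6c, of cones, had 0 counts in replicate 1 and 25 in replicate 2, at least 8.77-fold higher against a floor of 3 counts in replicate 1. Pde6g, the inhibitory subunit gene of rods, had 10 and 84 counts (0.360 and 5.11 TPM), a log2 ratio of 3.08 with a counting interval of 2.19 to 4.26. Pde6b, of rods, had 4 and 14 counts, with an interval of 0.21 to 3.94. Pde6d, whose product carries prenylated proteins in many tissues, had 586 and 530 counts and a log2 ratio of −0.07, and Pde6h, the inhibitory subunit gene of cones, had 15 and 12 counts (interval −1.47 to 0.95).

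Pineal and photoreceptor genes, a list of 12 drawn up after these values were seen, were higher in the same library. They summed to 1.56 TPM in replicate 1, against 18.1 TPM in replicate 2, and 0 of 12 were detected in both. Tph1, an enzyme of serotonin synthesis, had 4 and 477 counts, Gnb3 3 and 120, the retinoid carrier gene Rbp3 1 and 115, and the transcription factor gene Crx 0 and 38. Aanat, the enzyme gene of melatonin synthesis, had 7 and 17 counts, and Pdc had 0 in both. The summed choroid plexus genes were 26.6 and 1293 TPM. The part of either tissue in the Pde6 counts was not tested.

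Pde6a differed between the quantifications, with 5 and 2 counts in the first (log2 ratio −1.07, interval −4.64 to 1.36) and 97 and 102 estimated counts (2.89 and 3.25 TPM) in the second. It was the 1 catalytic gene below the detection limit in the first quantification that passed it in both libraries of the second.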
